A study of Oryza sativa with 40 samples.

Results

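Rice leaves kept at an unchanged temperature regime were compared a day apart. The comparison set the warm control leaves of 24 h against the warm control leaves of 0 h, over all 19308 genes of the deposited expression table, and it uses 8 of the 40 RNA-seq libraries of the study. The warm 24 h group (4 libraries) and the warm 0 h group (4 libraries) came from cultivar IR64 of Oryza sativa, an indica rice, grown hydroponically in a glasshouse at 30 °C by day and 25 °C by night and never moved to another temperature. The temperature shift of the other plants came 3 h into the day period, which is taken here as 0 h, and 24 h is the same point of the next day. Each library is about 8 cm from the middle of leaves that were full-grown at the start, so leaf age differed by a day between the groups. Warm leaves of 2 h and 6 h (4 libraries each) are used here to set the size of the change beside changes within a day. Hot (40 °C by day) and cold (25 °C by day) leaves of 24 h are quoted for the level of single genes. Their night temperature was shifted as well, above the 25 °C of warm nights for hot leaves and below it for cold leaves. Light was natural sunlight, and its level on either morning is not given. The labels do not say which of the 4 warm tanks, or how many plants, gave a library. The p-values therefore measure the spread between libraries only, which the main fit shared over all 10 groups.

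A leaf sampled at the same hour on successive days should stand at the same phase of its circadian clock, the network of morning and evening factors that repress each other in turn and time much of leaf metabolism. Starch is built in the chloroplast by day and broken down at night by glucan phosphorylases, amylases and their partners, and the clock helps to pace that breakdown. Trehalose phosphate reports the sucrose status of the leaf, and kinases of the SnRK1 type respond to low energy.

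Reads assigned to genes ran from 1830817 (replicate 3) to 9628451 (replicate 4) in warm 24 h libraries and from 4776471 to 6055015 in warm 0 h libraries. Levels are CPM, reads per 1e6 scaled reads, as deposited, which include an offset of 0.5 reads, so a gene without reads has a small value above 0. The smallest level told from 0 here, 3 reads, came to 0.370 to 2.06 CPM in warm 24 h libraries and 0.599 to 0.700 CPM in warm 0 h libraries, and is called the floor. Intervals and floors cover counting error or library spread only.

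Warm 0 h replicate 1 stood apart from its group, and the main results below are given with and without it. Over all genes its mean Pearson r with its group mates was 0.860, while the warm 24 h libraries had 0.935 to 0.956 and the other warm 0 h libraries 0.922 to 0.929. The values of those other 0 h libraries include their r with replicate 1. The median standard deviation of log2 CPM per gene was 0.353 at warm 24 h, 0.492 at warm 0 h and 0.297 at warm 0 h without replicate 1. Among 4993 genes with a mean log2 CPM of at least 5 replicate 1 lay more than 4-fold from the mean of its mates in 346, with 103 higher and 243 lower. The other 3 warm 0 h libraries did so in 4 to 18 genes and the warm 24 h libraries in 1 to 13. The mRNA of WRKY53, a defence-related transcription factor, was at 15.8 to 31.9 CPM in the warm 24 h libraries, against 1080 CPM in warm 0 h replicate 1 and 7.91 to 19.5 CPM in its mates. SNAC1, a NAC factor of the drought response, had 31 to 117 CPM at warm 24 h, against 1620 CPM in that library and 48.3 to 70.3 CPM in its mates. An early light-induced protein gene (LOC_Os07g08160) went the other way, with 42.5 to 656 CPM at warm 24 h, against 0.583 CPM in that library and 132 to 150 CPM in its mates. With the library itself kept out of the means, its r was 0.872 with the mean of its own group and 0.855 with that of warm 24 h, the next of the 10 groups. Its part in each difference is measured by leaving it out, and how it came about was not tested.

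Between the mornings 564 of 19308 genes changed at an adjusted p under 0.05, or 2.92% (limma with Benjamini-Hochberg adjustment, 4 libraries per group, spread shared over all 10 groups). Of these, 306 were higher at 24 h (1.58% of genes) and 258 lower (1.34%), and 371 moved at least 2-fold (1.92%). At an unadjusted p 19.9% of genes lay under 0.05, and the median log2 difference of all genes was 0.03. Without warm 0 h replicate 1 the same fit called 42 genes (0.218%), with 32 higher (0.166%) and 10 lower (0.0518%). Of the 564 genes, 36 were called in the same direction in both fits. The median size of the log2 differences of all 564 genes was 1.2 with the library and 0.87 without it. In 473 of the 564 (83.9%) that library was the 0 h library farthest from the warm 24 h mean, while over all genes it was so in 57.5%. Leaving out any of the other 0 h libraries raised the number of calls to between 900 and 1507.

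**Figure D1:**
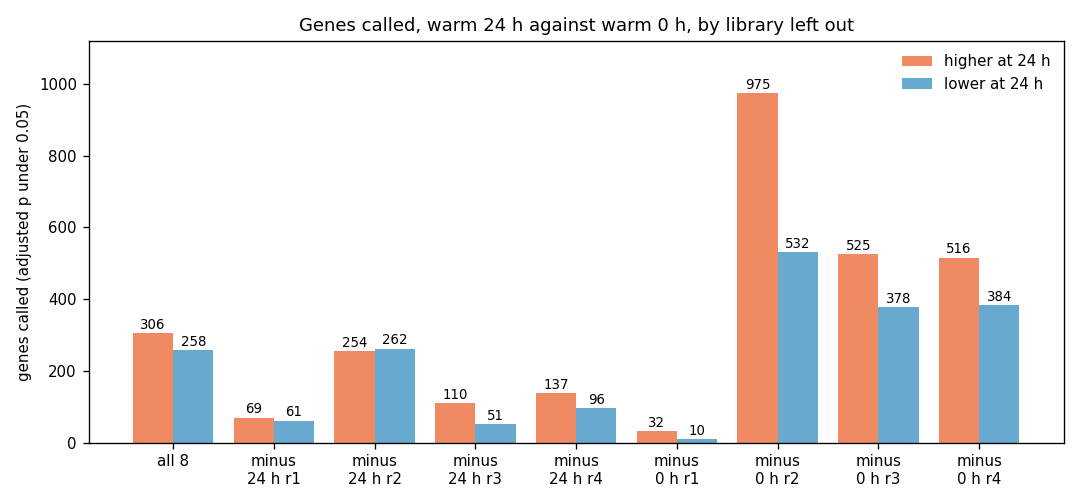
Genes called higher (orange) and lower (blue) at warm 24 h than at warm 0 h, with all 8 libraries and with each library left out in turn; the vertical axis counts genes with an adjusted p under 0.05. The bars drop to 32 and 10 without warm 0 h replicate 1 and reach 975 and 532 without warm 0 h replicate 2.

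Other limits bear on the same count. With the spread taken only from the 8 libraries compared, 1 gene was called, a fall. Once warm 0 h replicate 1 was left out as well, 52 were called, 18 higher and 34 lower. That balance was the reverse of the 32 higher and 10 lower in the fit of all groups without it. Sequencing lane was shared unequally: warm 24 h replicates 1 and 2 and warm 0 h replicates 1 to 3 ran on lane 1, and the other 3 libraries on lane 2. With lane as a term 391 genes were called. A fit of the lane 1 libraries alone called 0 genes (limma), with 1701 genes at an unadjusted p under 0.05.

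**Figure D2:**
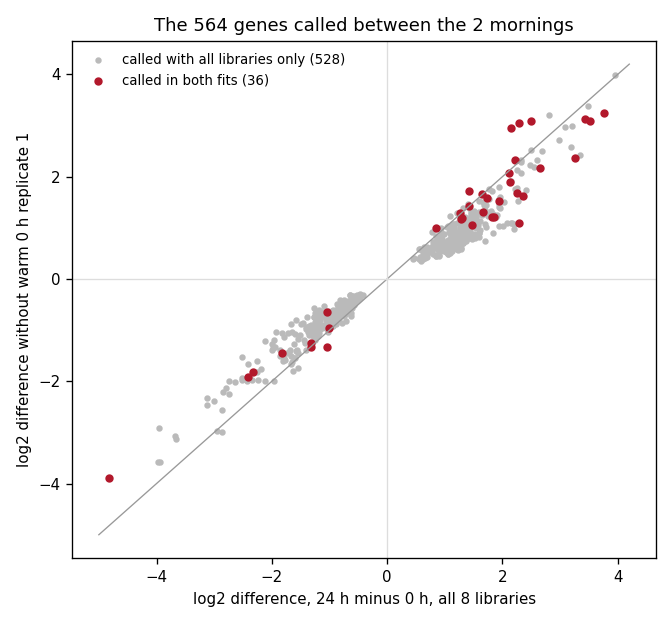
Each of the 564 called genes, with its log2 difference (24 h minus 0 h) from all 8 libraries on the horizontal axis and from 7 libraries, without warm 0 h replicate 1, on the vertical axis; the line marks equal values. The median size is 1.2 on the horizontal and 0.87 on the vertical axis, and the 36 genes called in both fits (red) lie between -4.82 and 3.76 on the horizontal axis, the other 528 being grey.

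Genes of starch and sugar metabolism were among those that rose. An alpha-glucan phosphorylase, which releases glucose phosphate from the ends of glucan chains, a starch branching enzyme, which puts the branch points into amylopectin, and a trehalose-6-phosphate synthase, of the family that makes a sugar signal, all rose with and without warm 0 h replicate 1. Of 67 measured genes of the starch, sucrose and trehalose list, 6 rose and 3 fell (13.4%, against 2.92% of all genes), with a median log2 difference of -0.09. Without that library 1 member of the list rose and 0 fell, in a fit that called 0.218% of all genes. The phosphorylases and branching enzymes were not caught by the list's name patterns and form a set of 6 that was drawn up after the values were seen: 4 rose, and 2 of them also without the library.

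The phosphorylase LOC_Os03g55090 (chromosome 3, 31332396 to 31339163, minus strand, IRGSP-1.0) had 38.8, 26.4, 36 and 48.8 CPM in the warm 24 h libraries, against 1.52, 12.9, 8.43 and 15.5 CPM in the warm 0 h libraries. Every 24 h library lay above every 0 h library, and replicate 1 was the lowest of the 0 h group. The log2 difference was 2.37 (SE 0.41, 95% interval 1.53 to 3.2, adjusted p = 0.00207 by limma), and without that library it was 1.62 (adjusted p = 0.00708 by limma). Within lanes it was 2.55 and 1.44. Over the hours of warm leaves the gene stood at geometric means of 7.11 CPM at 0 h, 153 CPM at 2 h, 227 CPM at 6 h and 36.6 CPM at 24 h, so the level climbed steeply within the day. In hot and cold leaves of 24 h the geometric means were 43.1 and 33.8 CPM.

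The second phosphorylase gene, LOC_Os01g63270, rose by less and rested more on that library. It had 466, 330, 440 and 517 CPM at warm 24 h, against 100, 263, 217 and 284 CPM at warm 0 h, with no overlap. Its log2 difference was 1.1 with all libraries (SE 0.23, adjusted p = 0.00889 by limma) and 0.77 without warm 0 h replicate 1, which missed the threshold (adjusted p = 0.0748 by limma).

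The branching enzyme LOC_Os04g33460 (chromosome 4, 20239790 to 20243460, minus strand) had 201, 126, 171 and 250 CPM at warm 24 h, against 13.2, 77.7, 76.8 and 78.8 CPM at warm 0 h. The other 3 warm 0 h replicates were nearly equal and all 24 h libraries stood above them. The log2 difference was 1.86 (SE 0.36, 95% interval 1.13 to 2.59, adjusted p = 0.00613 by limma) and 1.22 without replicate 1 (adjusted p = 0.0286 by limma). Its relative LOC_Os02g32660 rose at a lower level, with 24.4 to 44.3 CPM at warm 24 h against 4.55 to 16.6 CPM at warm 0 h and a log2 difference of 1.54 (adjusted p = 0.00694 by limma), which missed the threshold without replicate 1 (1.13, adjusted p = 0.0649 by limma). The branching enzyme LOC_Os06g51084 was nearly level over the 8 libraries, with 138 to 155 CPM at warm 24 h against 129 to 139 CPM at warm 0 h, a log2 difference of 0.10 with an interval of -0.16 to 0.36.

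The trehalose-6-phosphate synthase LOC_Os03g12360 (chromosome 3, 6519051 to 6523170, minus strand) was a gene in which replicate 1 changed little. It had 71.8, 37.9, 55.2 and 56.7 CPM at warm 24 h, against 23.7, 22.1, 25.1 and 19.4 CPM at warm 0 h. The groups did not overlap, and replicate 1 lay inside the 0 h group. The log2 difference was 1.27 (SE 0.25, 95% interval 0.76 to 1.77, adjusted p = 0.00691 by limma) with all libraries and 1.29 without replicate 1 (adjusted p = 0.0220 by limma). A second gene of the family, LOC_Os05g44210, was at 22.5 to 78.4 CPM at warm 24 h against 10.6 to 25.0 CPM at warm 0 h, and its call (1.27, adjusted p = 0.0400 by limma) was lost without replicate 1 (0.97, adjusted p = 0.267 by limma).

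The other called members of the list did not pass without replicate 1. A beta-amylase, which splits maltose from starch (LOC_Os07g35880), had 57.5 to 198 CPM at warm 24 h against 4.78 to 77.4 CPM at warm 0 h. A gene annotated as the large subunit of glucose-1-phosphate adenylyltransferase, an enzyme that makes the glucosyl donor of starch (LOC_Os09g12660), had 17.6 to 32.8 CPM against 6.58 to 13.9 CPM in the same order. A neutral invertase, which splits sucrose (LOC_Os04g33490), had 50.9 to 92.2 CPM against 29.7 to 42.3 CPM. Starch synthase III (LOC_Os08g09230) rose at a level of few reads, with 3.09 to 3.95 CPM at warm 24 h against 0.803 to 2.42 CPM at warm 0 h. Members that fell included another starch synthase (LOC_Os01g52250), with 17.5 to 33.4 CPM at warm 24 h against 38.7 to 85.3 CPM at warm 0 h and a log2 difference of -1.18 (adjusted p = 0.00652 by limma), which was -0.95 without replicate 1 (adjusted p = 0.0639 by limma). An alpha-amylase (LOC_Os04g33040, -0.50) and a gene annotated as trehalose synthase (LOC_Os09g23350, -1.40) were lower as well, and the list therefore moved in both directions.

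**Figure D3:**
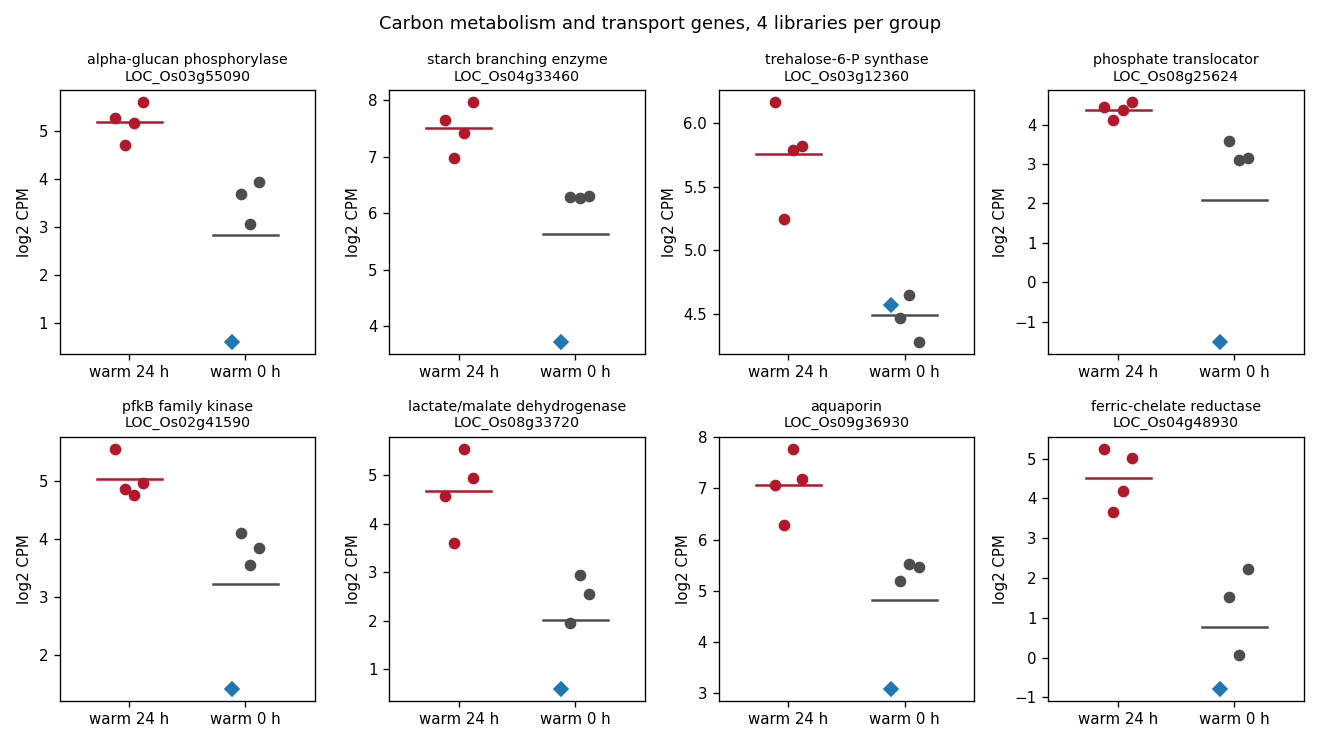
Log2 CPM of 8 carbon and transport genes that rose with and without warm 0 h replicate 1, in each warm 24 h library (red, left) and each warm 0 h library (grey, right), with warm 0 h replicate 1 as a blue diamond and group means as lines. All warm 24 h points lie above all warm 0 h points, and the diamond is the lowest point of its group in all panels but that of trehalose-6-phosphate synthase.

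Other enzymes and carriers of central metabolism rose in both fits. A phosphate translocator, of a family that trades phosphate for phosphorylated sugars across plastid membranes (LOC_Os08g25624), had 21.7, 17.4, 20.9 and 23.7 CPM at warm 24 h, against 0.350, 12.1, 8.66 and 8.83 CPM at warm 0 h. Its log2 difference of 2.30 (SE 0.54, adjusted p = 0.0184 by limma) was more than 1.5 times that without replicate 1 (1.1, adjusted p = 0.0220 by limma), a library with 1 read of the gene. A pfkB family sugar kinase (LOC_Os02g41590) was higher by 1.81 on the log2 scale (SE 0.35, adjusted p = 0.00588 by limma), with 27.1 to 46.8 CPM at warm 24 h against 2.68 to 17.1 CPM at warm 0 h. A lactate/malate dehydrogenase (LOC_Os08g33720) was higher by 2.65 (SE 0.44, adjusted p = 0.00107 by limma), with 12.2 to 46.3 CPM at warm 24 h against 1.52 to 7.74 CPM at warm 0 h. Argininosuccinate synthase, a step of arginine synthesis (LOC_Os12g13320), had 17.5, 16.4, 14.8 and 11.4 CPM at warm 24 h, against 4.78, 8.68, 5.66 and 5.85 CPM at warm 0 h. Its difference of 1.28 (SE 0.20, 95% interval 0.87 to 1.70, adjusted p = 0.00107 by limma) was 1.17 without replicate 1 (adjusted p = 0.00708 by limma), so it changed little.

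Other named genes that rose have parts in transport, although few members of the transport lists were called: 1 of 22 aquaporins (4.55%), 3 of 58 peptide and nitrate transporters (5.17%), 2 of 25 phosphate and metal starvation genes (8.0%) and 0 of 21 sugar transporters, with 2 of these 21 at an unadjusted p under 0.05 (limma), against 2.92% of all genes. Without replicate 1 only the aquaporin was called in these 4 lists, against 0.218% of all genes. A ferric-chelate reductase, which reduces chelated iron at membranes (LOC_Os04g48930, chromosome 4, 29178862 to 29181665, minus strand), had 37.7, 12.6, 18.2 and 32.2 CPM at warm 24 h, against 0.583, 2.89, 1.04 and 4.70 CPM at warm 0 h. The groups did not overlap, and the log2 difference was 3.76 (SE 0.68, 95% interval 2.38 to 5.14, adjusted p = 0.00357 by limma), or 3.25 without replicate 1 (adjusted p = 0.0378 by limma). Its geometric means were 4.06 CPM at 2 h and 4.61 CPM at 6 h, and 6.61 and 6.45 CPM in hot and cold leaves of 24 h, so the warm 24 h leaves were the highest of these groups. A gene annotated as metal transporter Nramp6 (LOC_Os07g15460) had 61.4, 18.4, 14.1 and 28.9 CPM at warm 24 h, against 0.817, 8.48, 1.73 and 5.62 CPM at warm 0 h. Its log2 difference was 3.18 (SE 0.69, adjusted p = 0.0121 by limma), and it was no longer called without replicate 1 (2.58, adjusted p = 0.117 by limma). An aquaporin, a water channel (LOC_Os09g36930, chromosome 9, 21310129 to 21311548, plus strand), had 134, 78.3, 218 and 145 CPM at warm 24 h, against 8.52, 36.6, 46.3 and 44.4 CPM at warm 0 h. Its difference of 2.25 (SE 0.38, adjusted p = 0.00122 by limma) was 1.68 without replicate 1 (adjusted p = 0.00966 by limma). Its geometric mean climbed to 758 CPM at 2 h and 1197 CPM at 6 h.

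B-box and CCT genes moved in both directions. Of 36 genes with B-box or CCT domains, families that hold many light and flowering regulators, 2 rose and 2 fell (11.1%, against 2.92% of all genes). The list median was -0.06. The 2 that rose were called in both fits, while 0.218% of all genes were called without replicate 1. The CCT gene LOC_Os05g51690 had 154, 65.7, 138 and 148 CPM at warm 24 h, against 26.5, 35.6, 33.4 and 53.6 CPM at warm 0 h, without overlap. Its log2 difference was 1.74 (SE 0.31, adjusted p = 0.00222 by limma) and 1.59 without replicate 1 (adjusted p = 0.0191 by limma). The B-box gene LOC_Os01g10580 rose at a level of few reads, with 9, 9, 1 and 13 reads at warm 24 h against 2, 1, 4 and 2 reads at warm 0 h, and its groups overlapped. The B-box genes LOC_Os09g35880 (188 to 248 CPM at warm 24 h against 308 to 480 CPM at warm 0 h) and LOC_Os03g50310 (386 to 484 CPM against 700 to 884 CPM) fell, by 0.71 and 0.85 on the log2 scale, and neither was called without replicate 1 (adjusted p of 0.213 and 0.178 by limma).

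A run of neighbouring genes on chromosome 4 rose together. Of 22 measured genes with the DUF581 domain, a small zinc finger through which Arabidopsis proteins bind the SnRK1 energy-sensing kinase, 4 rose and 0 fell (18.2%, against 2.92% of all genes), and all 4 lie on the minus strand between 29588213 and 29621500. The median over the 22 genes was 0.26, or 0.17 without replicate 1, with 16 and 12 of them above 0. LOC_Os04g49620 had 65.5, 30.5, 142 and 69.9 CPM at warm 24 h, against 8.05, 11.5, 17 and 20.5 CPM at warm 0 h, with a log2 difference of 2.32 (SE 0.45, adjusted p = 0.00652 by limma). LOC_Os04g49660 and LOC_Os04g49670 rose by 1.94 and 1.59 at lower levels. LOC_Os04g49650 had 13, 8, 3 and 27 reads at warm 24 h against 0, 1, 2 and 0 reads at warm 0 h, and was the only gene of the 4 called without replicate 1 (adjusted p = 0.00708 by limma). The others, in that fit which called 0.218% of all genes, were at 2.07, 1.46 and 1.31 (adjusted p of 0.0604, 0.0881 and 0.11 by limma). This set was drawn up after the values were seen, and reads that near-identical copies share could have been split between them in the counting.

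Among the other genes higher in both fits was LOC_Os01g63620, a protein of no described function. It had 216, 110, 404 and 265 CPM at warm 24 h, against 3.62, 40.8, 46.3 and 43.9 CPM at warm 0 h (3.26, SE 0.51, adjusted p = 0.00107 by limma), and 2.36 without replicate 1 (adjusted p = 0.00336 by limma). A midasin-related gene (LOC_Os10g31856) rose by 1.66 and an expressed protein (LOC_Os02g36490) by 1.29. This second gene stood at 19.6 to 31.3 CPM at warm 24 h and 8.28 to 12.8 CPM at warm 0 h. Several of these genes rest on few reads. The terpene synthase LOC_Os04g27790 had 19, 13, 3 and 45 reads at warm 24 h against 0, 4, 0 and 2 reads at warm 0 h. The zinc finger gene ZOS7-13 (LOC_Os07g44640) had 18, 20, 4 and 22 reads against 1, 5, 5 and 4 in the same order. In 5 of the 36 genes both geometric means lay under the highest floor of the 8 libraries, and in 6 the groups overlapped. Over all genes the groups did not overlap with 24 h higher in 3.53% and with 24 h lower in 3.89%.

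Genes that fell in both fits were 9. The largest fall was of DEFL9 (LOC_Os06g22919, chromosome 6, 13375503 to 13390470, plus strand), of the defensins, small antimicrobial peptides. It had 0.967, 2.63, 0.343 and 1.17 CPM at warm 24 h, against 196, 20.3, 22.7 and 7.23 CPM at warm 0 h, or 0 to 13 reads against 31 to 840 reads. The log2 difference was -4.82 (SE 0.80, 95% interval -6.44 to -3.20, adjusted p = 0.00110 by limma), and -3.89 without replicate 1 (adjusted p = 0.0140 by limma). The transcript was near the floor at the other warm hours too, with geometric means of 1.31 CPM at 2 h and 0.902 CPM at 6 h, so it was abundant at 0 h only among the warm groups.

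A dehydrogenase E1 component, part of an oxo acid dehydrogenase complex (LOC_Os04g02900), had 17.3, 23.5, 14.1 and 14.9 CPM at warm 24 h, against 249, 66.8, 71.5 and 45.1 CPM at warm 0 h. Its difference of -2.33 (SE 0.37, adjusted p = 0.00107 by limma) was -1.81 without replicate 1 (adjusted p = 0.00708 by limma). A hAT dimerisation domain gene (LOC_Os01g12280) fell by 2.41 on the log2 scale and a nodulin-family gene (LOC_Os09g36600) by 1.83, and in both replicate 1 was the highest of the 0 h libraries. A pentatricopeptide repeat gene, of the family that binds organelle RNAs (LOC_Os10g10170), had 204, 341, 147 and 236 CPM at warm 24 h, against 655, 588, 524 and 471 CPM at warm 0 h. Here replicate 1 lay near its mates, and the difference of -1.32 (SE 0.23, adjusted p = 0.00149 by limma) was -1.24 without it (adjusted p = 0.0111 by limma). A gene named for cyclopropane fatty acid synthase (LOC_Os07g29220) was as little touched by that library, with 29.1 to 41.0 CPM at warm 24 h against 55.4 to 89.3 CPM at warm 0 h and differences of -1.0 and -0.95. Valyl-tRNA synthetase (LOC_Os03g21740) had 20.2 to 25.7 CPM at warm 24 h against 32.4 to 112 CPM at warm 0 h. The nucleoside hydrolase LOC_Os05g33630, which cleaves inosine and uridine, was the exception among these genes: its groups overlapped only through replicate 1, and the fall was larger without it (-1.33, adjusted p = 0.0178 by limma) than with it (-1.05, adjusted p = 0.0329 by limma).

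**Figure D4:**
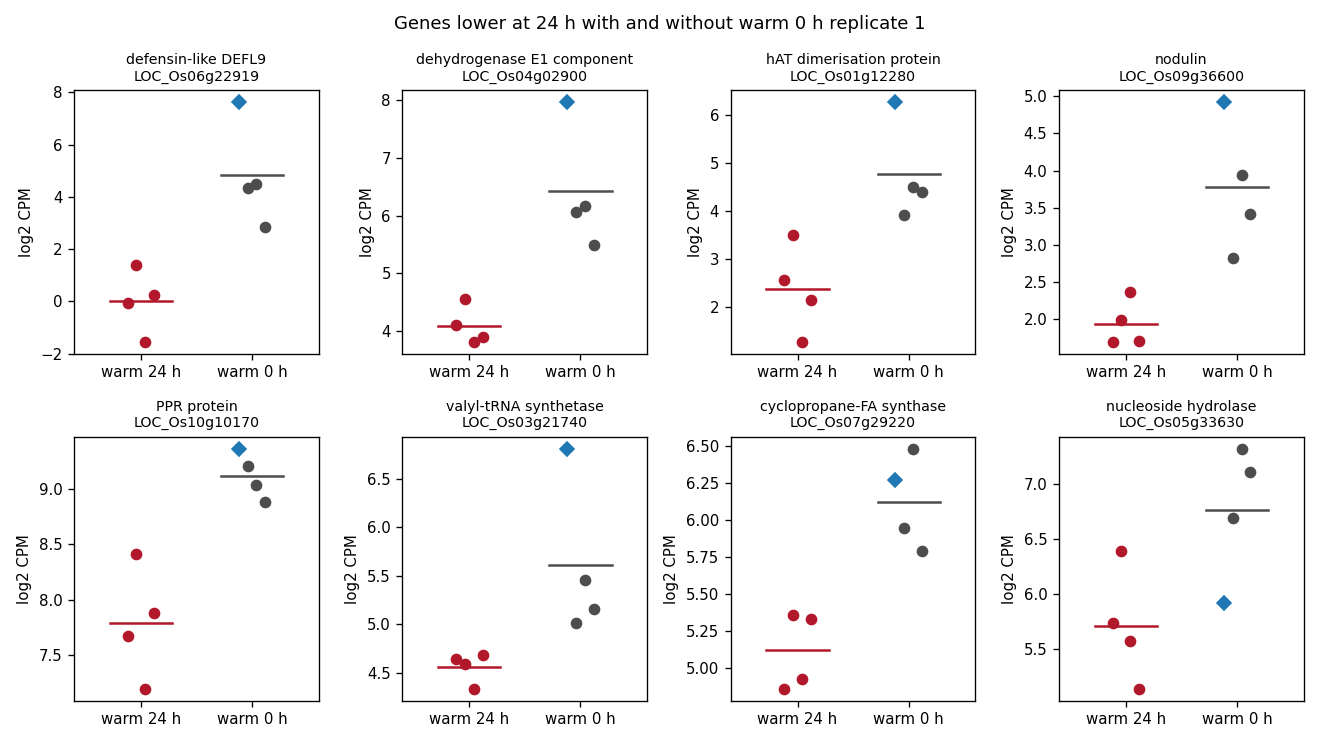
Log2 CPM of 8 of the 9 genes that fell with and without warm 0 h replicate 1, in each warm 24 h library (red, left) and each warm 0 h library (grey, right), with warm 0 h replicate 1 as a blue diamond and group means as lines. The diamond is the highest 0 h point in 6 panels, lies among its mates for the cyclopropane fatty acid synthase gene, and is the lowest for the nucleoside hydrolase.

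Large falls that were called only with replicate 1 in the group included an F-box/LRR-repeat gene (LOC_Os11g01780), with 1.03 to 2.04 CPM at warm 24 h against 5.29 to 54.7 CPM at warm 0 h (-3.66, adjusted p = 0.00613 by limma; -3.13 without replicate 1, adjusted p = 0.0571 by limma). A plastid-specific ribosomal protein gene (LOC_Os03g63950) had 29.1, 59.3, 30.5 and 19.5 CPM at warm 24 h, against 608, 152, 195 and 116 CPM at warm 0 h, with differences of -2.75 and, without replicate 1, -2.24 (adjusted p of 0.0113 and 0.11 by limma). The family 17 glycosyl hydrolase LOC_Os05g31140, whose relatives cut glucans of cell walls, had 22.6, 83.4, 33.3 and 30.6 CPM at warm 24 h, against 275, 262, 360 and 265 CPM at warm 0 h. Replicate 1 was among the 3 nearly equal libraries there, and the difference was -2.95 with it (adjusted p = 0.0160 by limma) and -2.97 without it (adjusted p = 0.0829 by limma). In that gene the size of the difference did not depend on the library, while the call did. The same held for ZOS2-19 (LOC_Os02g57790), a C2H2 zinc finger gene and the 1 gene called when the spread came from the 8 libraries alone. It had 20.1, 20.7, 19.6 and 26.8 CPM at warm 24 h, against 67.3, 73.5, 60.4 and 72.8 CPM at warm 0 h, with little spread in either group. Its difference was -1.66 (adjusted p = 0.0484 by limma), and -1.67 without replicate 1 (adjusted p = 0.165 by limma).

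Of 13 measured clock genes 0 were called, with or without replicate 1, and 7 had an unadjusted p under 0.05 (limma), against 19.9% of all genes. The log2 differences of the list ran from -1.17 to 2.19, and the gene at its lower end is not among those named here. In some of the 24 alternatives a clock gene was called, FKF1 and PRR1 in 3 each and GI in 1. LHY, the morning MYB repressor of the clock, had 3010, 3040, 2690 and 3140 CPM at warm 24 h, against 5480, 3380, 4340 and 3570 CPM at warm 0 h. Its groups did not overlap, but the log2 difference of -0.47 (SE 0.22, 95% interval -0.93 to -0.02, adjusted p = 0.229 by limma) was small beside the course of the day, in which its geometric means were 4116 CPM at 0 h, 870 CPM at 2 h, 142 CPM at 6 h and 2965 CPM at 24 h. PRR95, a day-phased pseudo-response regulator, had 360, 327, 314 and 437 CPM at warm 24 h, against 102, 221, 257 and 231 CPM at warm 0 h (0.90, adjusted p = 0.115 by limma; 0.60 without replicate 1, adjusted p = 0.531 by limma), with 1009 CPM at 2 h. GIGANTEA (GI), a clock and flowering protein, had 746, 721, 587 and 863 CPM at warm 24 h, against 218, 614, 505 and 477 CPM at warm 0 h (0.77, adjusted p = 0.0866 by limma; 0.45 without replicate 1, adjusted p = 0.508 by limma), with 1809 CPM at 2 h.

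FKF1, a blue light receptor F-box protein, had 13, 12, 3 and 20 reads at warm 24 h, against 2, 2, 3 and 1 reads at warm 0 h, which is at or under the floor in the 0 h libraries. In CPM its groups did not overlap, with 2.37 to 2.53 CPM at warm 24 h against 0.344 to 0.808 CPM at warm 0 h. Its log2 difference of 2.19 (SE 0.66, adjusted p = 0.0592 by limma) was the largest of the clock list, and was 2.23 without replicate 1 (adjusted p = 0.214 by limma). It stood at 84.5 CPM at 2 h and 349 CPM at 6 h. PRR1, an evening-phased regulator, had 43.2, 24.6, 93.0 and 55.2 CPM at warm 24 h, against 1.75, 24.2, 33.6 and 27.6 CPM at warm 0 h. Its difference of 1.78 (adjusted p = 0.0766 by limma) was 0.77 without replicate 1 (adjusted p = 0.556 by limma). PRR73 had 1140 to 1320 CPM at warm 24 h against 942 to 1430 CPM at warm 0 h, a difference of -0.05 with an interval of -0.39 to 0.30, and PRR37 differed by 0.1. PRR59 and LUX differed by 0.42 and 0.45 and ELF3-1 by -0.32, none of them called. LUX had 0, 1, 1 and 1 reads at warm 24 h, against 0, 1, 0 and 1 reads at warm 0 h. All lay under the floor, so neither level of LUX is told from 0. The differences of PRR73, PRR37 and LUX took the other sign under some of the alternative settings. For LHY, GI, PRR95, PRR1, FKF1, PRR37, PRR59 and ELF3-1 the warm 24 h mean lay between the 0 h and the 2 h means. That of LUX did so too, but only with reads under the floor on both mornings. For PRR73 the warm 24 h mean lay below both. The 95% intervals of GI (0.24 to 1.29) and PRR95 (0.23 to 1.57), which include replicate 1, lie above 0.

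**Figure D5:**
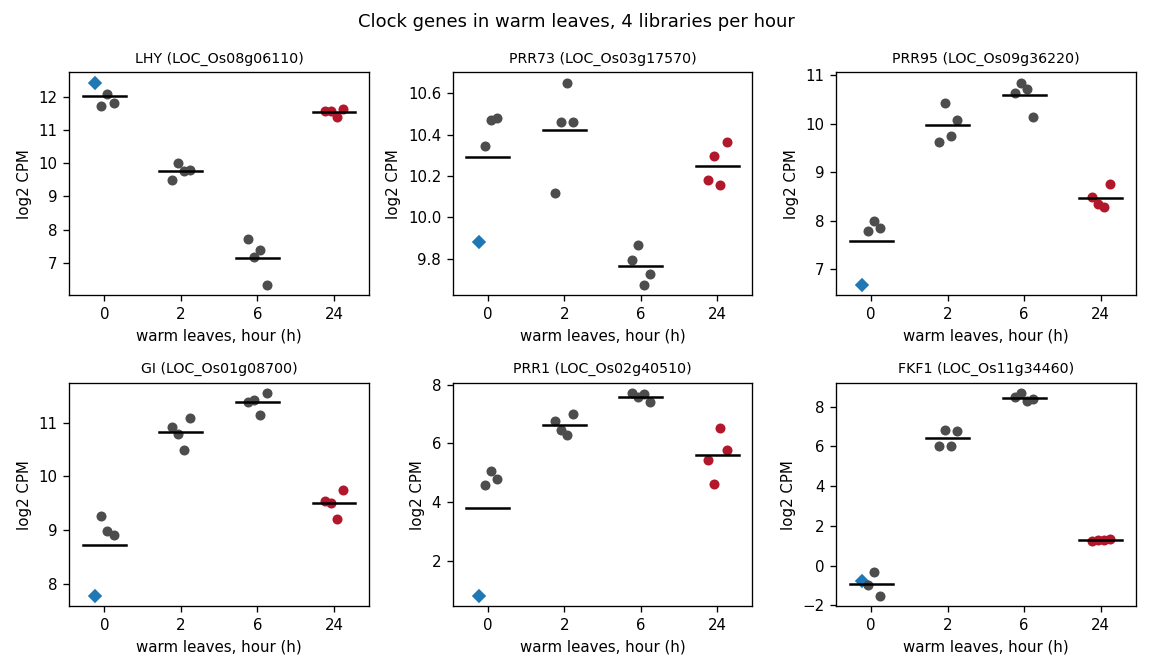
Log2 CPM of 6 clock genes in warm leaves at 0, 2, 6 and 24 h (4 libraries each; 24 h in red, the others in grey, warm 0 h replicate 1 as a blue diamond, lines at group means). LHY falls from 0 h to 6 h and is back near its 0 h level at 24 h, while PRR95, GI, PRR1 and FKF1 climb to 6 h and lie at 24 h between their 0 h and 2 h levels.

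Calls among photosynthesis genes were set against 2.92% of all genes. A single member of the 113 light harvesting and photosystem genes was called, a rise (0.885%). The list's median log2 difference was -0.38, against 0.03 for all genes, and 28 of the 113 were above 0. Without replicate 1 the median was -0.43, against 0.02 for all genes, with 22 above 0 and 0 called. The riser was a ferredoxin-NADP reductase (LOC_Os06g01850) with 703, 578, 1170 and 918 CPM at warm 24 h, against 154, 524, 448 and 523 CPM at warm 0 h, and its log2 difference of 1.13 was 0.71 without replicate 1, when it was not called (adjusted p = 0.356 by limma). Of 44 Calvin-Benson cycle genes 2 rose (4.55%), a transketolase (LOC_Os09g33500, 0.58) and a glyceraldehyde-3-phosphate dehydrogenase (LOC_Os04g40950, 0.69). Without replicate 1 these differences were 0.36 and 0.42, and 0 of the 44 genes were called. Rubisco activase (RCA), which keeps the carbon-fixing enzyme active, had 42300, 46700, 77600 and 50700 CPM at warm 24 h, against 41100, 58900, 58400 and 64200 CPM at warm 0 h, a difference of -0.06 with an interval of -0.68 to 0.57. The nitrate reductase NIA1 differed by -0.38 (adjusted p = 0.646 by limma), the photoprotection gene PSBS1 by 1.05 (adjusted p = 0.246 by limma) and 0.20 without replicate 1, and the stay-green gene SGR by 0.25 (adjusted p = 0.837 by limma).

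Genes of the translation machinery were examined in separate lists. The 248 genes of cytosolic ribosomal proteins held 4 rises and 0 falls (1.61%, against 2.92% of all genes), 103 had an unadjusted p under 0.05 (limma), 216 had a difference above 0, and the median was 0.57, or 0.25 without replicate 1, when 0 were called. The median kept its sign under the other scalings (0.52 with libraries shifted to one median and after quantile normalization), as did that of the photosystem genes (-0.43 and -0.29). The ribosomal genes' summed level was 7610 to 11400 CPM in the warm 24 h libraries, against 4710 CPM in warm 0 h replicate 1 and 5610 to 10200 CPM in its mates, so the groups overlapped. The ribosomal protein L35 gene (LOC_Os06g43900) had 33.4 to 61.4 CPM at warm 24 h against 11.8 to 28.6 CPM at warm 0 h (0.93, adjusted p = 0.0431 by limma). Of 128 translation factors and tRNA synthetases 5 rose and 1 fell (4.69%). Only the fall, of valyl-tRNA synthetase, was called without replicate 1, against 0.218% of all genes.

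Lists of stress genes and large families held small numbers of calls, read here against 2.92% of all genes. Small heat shock proteins had 1 fall among 19 (5.26%), an hsp20 gene (LOC_Os10g30162) with 3.99 to 5.36 CPM at warm 24 h against 7.68 to 21.1 CPM at warm 0 h, and 0 were called without replicate 1. The HSP70, HSP90 and HSP101 list had 0 of 19 called with and without replicate 1, with 3 at an unadjusted p under 0.05 (limma), and HSP101 had 27.5, 32.6, 32.6 and 19.1 CPM at warm 24 h, against 48.4, 50.6, 31.5 and 18.9 CPM at warm 0 h. Of 57 WRKY factors 0 were called, with 5 at an unadjusted p under 0.05 (limma), although WRKY53 was high in replicate 1. The NAC list had 2 rises of 52 (3.85%) and the AP2/ERF list 0 calls of 66 (7 at an unadjusted p under 0.05, limma), and without replicate 1 they had 0 and 1. Cytochrome P450 genes had 4 falls of 145 (2.76%), F-box genes 3 rises and 8 falls of 322 (3.42%), and genes annotated as transposon or retrotransposon proteins 5 rises and 4 falls of 726 (1.24%). Over the 51 lists with members, 108 of 4296 distinct genes were called and 31 lists held a call. Without replicate 1 there were 13 genes in 11 lists, in a fit that called 0.218% of all genes.

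Markers of the cell types that a leaf section holds were read beside these results, with calls set against 2.92% of all genes. The sections carried leaf mesophyll transcripts at 97800 to 136000 CPM of light harvesting and photosystem genes at warm 24 h, against 121000 to 190000 CPM at warm 0 h. Of 24 vascular and secondary wall markers 1 rose (4.17%), and 17 had a difference above 0 with a median of 1.21. The gene that rose was COBRA-like (LOC_Os03g30260), with 8, 2, 1 and 17 reads at warm 24 h against 0, 1, 1 and 4 reads at warm 0 h. The list summed to 37.9 to 132 CPM at warm 24 h, against 277 CPM in warm 0 h replicate 1 and 31.7 to 51.4 CPM in its mates. The secondary wall cellulose synthase CESA4 had 34, 6, 12 and 42 reads at warm 24 h, against 3, 3, 3 and 29 reads at warm 0 h, and CESA7 had 21, 0, 11 and 32 reads against 0, 2, 1 and 8 in the same order. The share of vascular tissue in a section was not measured, and its part in any difference was not tested. Of 113 dividing cell markers 1 rose and 3 fell (3.54%). Their summed level was 2240 to 2430 CPM at warm 24 h against 2660 to 3170 CPM at warm 0 h. Epidermis and wax markers (1 rise of 64, 1.56%) and the guard cell anion channel gene (0.11) differed little in the median. In bulk leaf RNA fewer cells of a type and less RNA per cell cannot be told apart.

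Set beside the changes within a day, the difference of the mornings took in fewer genes than any of the 4 comparisons made across hours. Warm 2 h leaves differed from warm 0 h leaves in 4307 genes (22.3%), and warm 6 h leaves from warm 0 h leaves in 8472 (43.9%), by the same fit and threshold. Without warm 0 h replicate 1 these counts were 3293 (17.1%) and 7565 (39.2%). Warm 24 h leaves differed from warm 2 h leaves in 1485 genes (7.69%) and from warm 6 h leaves in 6290 (32.6%), and without that library in 1923 and 6941. These comparisons share libraries with that of the mornings and are given for size only.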

How the data were processed

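The authors deposited a log2 CPM value for each of 19308 genes in 40 libraries, as limma voom gives it, from the read count plus 0.5 over a scaled library size. Per the labels' protocols, these were stranded, rRNA-depleted total RNA libraries read for 61 cycles from a single end. Per the submitters' processing notes, reads were handled with Subread 1.5.0-p1 and featureCounts 1.5.0-p1 on build IRGSP-1.0 and normalised with edgeR 3.4.2 and limma 3.20.1. Strand setting, low-count filter and scaling method were not found in the labels, so antisense and overlapping genes are uncertain. All deposited values turned back into whole reads within 0.001 reads (100% in each library), which gave the reads quoted.

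A linear model with 10 group means was run on these log2 values in limma 3.58.1 (R 4.3.3; trended, robust empirical Bayes). Warm 24 h was set against warm 0 h, two-sided, with 4 libraries each, and Benjamini-Hochberg adjustment covered all genes (threshold 0.05). The fit was tested on simulated data. Summaries came from pandas 2.3.3 and numpy 2.4.6 (Python 3.11.15), plots from matplotlib 3.10.9. Deviations from the group means correlated at -0.013, 0.107, 0.078 and 0.192 between same-numbered libraries (replicates 1 to 4). Between differently numbered libraries the values ran from -0.175 to 0.066. The labels do not say whether the numbers mark pairs, and the main fit left the libraries unpaired. There were 24 alternatives, each library left out in turn among them.

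The comparison, the 52 gene lists, the 3 added sets and the named genes were chosen with earlier results of these data known. Lists combine product-name patterns with identifiers, and symbols come from the lists, not the table. Named genes are the 12 largest rises and 12 largest falls among called, non-overlapping genes with a mean log2 CPM of at least 2 and an informative name, the 2 genes of smallest p in each list with a call, 16 always named and the 5 of smallest p overall; the text gives some of them. Genes called in both fits, further called members of the starch, B-box and DUF581 sets and the stress genes of the library that stands apart were added after their values were seen. Sequences were not used here.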

Additional observations from a re-analysis of the deposited data

Results flagged for a closer look

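Each named gene's 4 values in a group were searched for a library far from the other 3 (Dixon's test at the 95% level, on log2 CPM). Of 270 groups of 4 values over 135 genes, 30 held such a library. Chance flags about 1 in 20 where genes are picked without regard to their values. Many of these genes were picked by their values in these libraries, so that rate is no baseline here. Warm 0 h replicate 1 was the library in 21 of the 30, and its mean r with its group mates, 0.8597, was itself far below theirs.

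In warm 0 h replicate 1 the level was far below that of its mates for the water channel LOC_Os09g36930 (8.52 CPM), the branching enzyme LOC_Os04g33460 (13.2 CPM), a trehalose-6-phosphate synthase, LOC_Os05g44210 (10.6 CPM), and LOC_Os01g63620 (3.62 CPM). The phosphate translocator LOC_Os08g25624, ZOS7-13 (LOC_Os07g44640) and a nucleotide pyrophosphatase (LOC_Os08g41880) were each at 0.35 CPM there. Of the chloroplast enzymes, ferredoxin-NADP reductase (LOC_Os06g01850) was at 154 CPM and transketolase (LOC_Os09g33500) at 34.2 CPM. Of the clock genes, PRR1 (LOC_Os02g40510) was at 1.75 CPM, PRR37 (LOC_Os07g49460) at 358 CPM and PRR95 (LOC_Os09g36220) at 102 CPM. A GDSL lipase (LOC_Os01g11650, 22 CPM), a peroxiredoxin (LOC_Os02g33450, 27.9 CPM), ribosomal protein L35 (LOC_Os06g43900, 11.8 CPM) and an initiation factor subunit (LOC_Os12g07740, 6.88 CPM) were low as well.

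The same library was far above its mates for a splicing factor-related gene (LOC_Os01g48930, 471 CPM), serine acetyltransferase (LOC_Os01g52260, 354 CPM), a helix-loop-helix gene (LOC_Os11g38870, 96.0 CPM), a nitrate-induced NOI gene (LOC_Os06g17870, 37.4 CPM) and an RNA recognition motif gene (LOC_Os07g08320, 1.05 CPM).

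The other 9 fell on several libraries. Warm 24 h replicate 2 was low for the CCT gene LOC_Os05g51690 (65.7 CPM) and for a laccase, LOC_Os01g62490 (0.0973 CPM), for which warm 0 h replicate 2 was low too (0.0998 CPM). Warm 24 h replicate 3 was low for OsIAA15 (LOC_Os05g08570, 3.77 CPM), and warm 24 h replicate 4 for an ATPase (LOC_Os03g15810, 0.678 CPM). Warm 0 h replicate 3 was high for the glycosyl hydrolase LOC_Os05g31140 (360 CPM). In warm 0 h replicate 2 a glucosyltransferase (LOC_Os04g44250) and a dioxygenase (LOC_Os04g49210), each without a read, were low at 0.0998 CPM and a leucine rich repeat gene (LOC_Os06g04840) was high at 0.299 CPM. The laccase, the glucosyltransferase and the dioxygenase had 0 reads in all 4 warm 0 h libraries, so their 0 h values differ only by the depth of the libraries. The leucine rich repeat gene had 1 read there in replicate 2 and 0 in the other 3.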

How the results depend on the processing

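The 564 called genes, with 108 list members among them, became 1 and 0 with the spread from these groups only, and 110 and 26 with that of the warm libraries only. The counts were 337 and 60 after quantile normalization, 217 and 41 with voom weights (42.9% higher at 24 h, against 54.3%), 111 and 22 with the replicate block and lane as terms, and 0 and 0 in lane 1 alone. Lane as a term gave 391 and 69. Leaving out 1 library gave 42 to 1507 genes and 13 to 328 list members: 130, 516, 161 and 233 genes without warm 24 h replicates 1 to 4, and 42, 1507, 903 and 900 without warm 0 h replicates 1 to 4. Without replicates 1 of warm 0 h and hot 24 h the counts were 110 and 27. In alternatives chosen after seeing the data they were 23 and 4 without warm 0 h replicate 1 and warm 24 h replicate 3, and 52 and 13 with these groups only and without warm 0 h replicate 1. The replicate block alone gave 407 genes, and the labels do not say whether the replicate numbers mark pairs. Shifting libraries to one median gave 537 genes with 45.4% higher, and CPM plus 1 gave 528 with 47.2% higher. The mean r of the warm 0 h libraries was 0.909 over all genes and 0.867 over genes with a mean log2 CPM of at least 5.

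Of the named genes' values under the alternatives, 2170 kept their direction and stayed called or stayed uncalled as in the main fit. Another 985 lost the call, 55 gained it and 18 turned sign, none of the 18 called. LUX (LOC_Os01g74020), under the floor in all 8 libraries, was -0.359 with array weights, -0.442 without warm 0 h replicate 1 and warm 24 h replicate 3, and -0.2 to 0.984 with 1 library left out. PRR73 (LOC_Os03g17570) was 0.16 after quantile normalization, 0.0523 with block and lane, 0.00716 in lane 1 and -0.185 to 0.0167 with 1 left out. PRR37 (LOC_Os07g49460) was -0.0571 with array weights, -0.0795 in each fit without warm 0 h replicate 1 except -0.0226 without warm 24 h replicate 3 too, and -0.0795 to 0.176 with 1 left out. SGR (LOC_Os09g36200) was -0.123 in lane 1 and -0.153 to 0.442 with 1 left out, and RCA (LOC_Os11g47970) -0.24 to 0.0512. The cause of these changes was not tested. Depth limits genes of few reads, above all in warm 24 h replicate 3 with 1830817 reads.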
